A study of Oryza sativa with 10 samples.

Results

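Rice seedlings that are moved from darkness to light switch from skotomorphogenesis to photomorphogenesis. A set of genes stayed within a chosen limit of its dark transcript level at 8 h of light and was higher at 24 h. These late-rising genes were chosen by their measured values. The log2 of the mean FPKM plus 1 had to differ by less than 0.5 in either direction between 0 and 8 h, and to be higher by 0.5 or more at 24 h than at 8 h. The table used here covers chromosome 1 up to position 21262392, and 1092 of its genes, the tested genes, averaged 1 FPKM or more across the 10 libraries. It found 55 genes, which is 5.04% of the tested genes. FPKM is a count of fragments divided by gene length and by library total, so every level is a share of its own library.

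Photomorphogenesis replaces the pale, elongating growth of a dark-grown seedling with leaf expansion and the building of chloroplasts. Photoreceptors such as phytochromes and cryptochromes release transcription factors from repression, and nuclear genes for chlorophyll synthesis and the photosystems are then transcribed. GOLDEN2-LIKE (GLK) transcription factors are activators of such genes in green tissue. Abscisic acid (ABA) is a hormone of drought and seed dormancy, and indole-3-acetic acid (IAA) is the main natural auxin, a hormone of growth and patterning.

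RNA-seq was performed on seedlings of the indica cultivar YD6, all germinated in the dark for 3 d. The conditions were 0 h (still in the dark), 8 h of light, 24 h of light, and 24 h of light with 100 μM ABA or 100 μM IAA sprayed on for the last 30 min. Each of the 5 conditions had 2 biological replicates, and no seedlings were kept in the dark to 8 or 24 h, so light, seedling age and time of day cannot be told apart. ABA and IAA were dissolved in DMSO, and the methods also name a 30 min spray of DMSO alone. Whether the 24 h libraries are from seedlings that received it is not known here. Depth cannot be read from scaled values and is unknown. On the log2(FPKM + 1) scale the median gene of the tested set moved by -0.18 between 0 and 8 h, and its step between 8 and 24 h was -0.17. The files do not pair gene IDs with names, and 0 of the 2282 IDs matched the RefSeq gene table, so genes are given by their MSU locus IDs, and the labelled tissue was not checked against marker genes. The study itself pairs GLK2 with LOC_Os01g13740.

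The values that chose the genes are given as a description. Over the 55 late-rising genes the difference between 24 and 8 h had a median of 0.83 on the log2(FPKM + 1) scale, with quartiles of 0.65 and 1.07 and a highest value of 3.80. It was 1 or more in 17 genes and 2 or more in 4 genes. The earlier difference between 8 and 0 h had a median of 0.02, and it was above 0 in 30 genes and below 0 in 25 genes. Both libraries at 24 h lay above all 4 libraries of 0 and 8 h in each of the 55 genes. Those libraries chose the genes, and the share over all tested genes was not computed, so nothing is read from this separation. Late-rising genes were a part of the 96 tested genes that were higher by 0.5 or more at 24 h than at 8 h. The other such genes comprised 22 that had already gained 0.5 or more by 8 h and 19 that had lost 0.5 or more by 8 h.

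**Figure D1:**
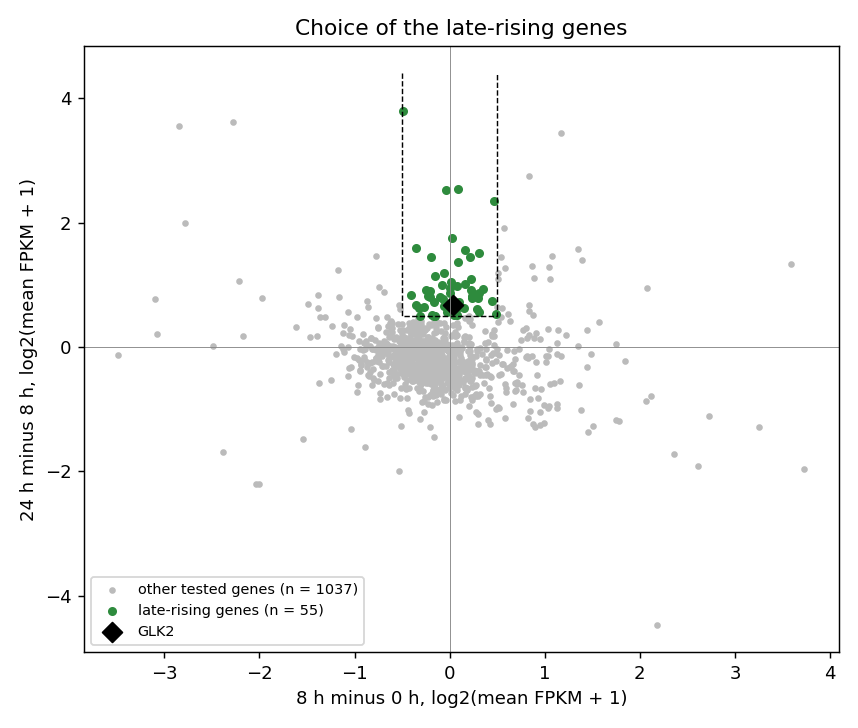
Difference between 24 and 8 h (y axis) against the difference between 8 and 0 h (x axis), both as log2(mean FPKM + 1), for each of the 1092 tested genes. The dashed lines are the limits of the rule, the 55 late-rising genes lie inside them, and GLK2 sits near the lower limit of the later rise.

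LOC_Os01g08020 (chromosome 1, 3878069 to 3900085, minus strand) had the widest later difference, 3.80 on the log2 scale. Its level was 2.13 and 2.21 FPKM at 0 h, 1.16 and 1.36 FPKM at 8 h, and 31.6 and 29.1 FPKM at 24 h. In the hormone libraries it was 16.7 and 19.0 FPKM with ABA and 15.3 and 16.6 FPKM with IAA, between the levels at 8 and 24 h. Its model overlaps the end of LOC_Os01g08010 on the other strand by 391 bases, and that neighbour had a mean of 1.01 FPKM. The FPKM step names no strand setting, so reads within the overlap may not be told apart.

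LOC_Os01g18840 (10643287 to 10644848, plus strand) was next, with a difference of 2.55. It was at 1.65 and 1.28 FPKM at 0 h, 1.57 and 1.67 FPKM at 8 h, 14.2 and 14.4 FPKM at 24 h, 10.3 and 10.1 FPKM with ABA, and 10.9 and 10.3 FPKM with IAA. The low dark level and the level at 8 h overlapped, and the groups at 24 h of light lay well apart from both.

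LOC_Os01g08440 (4152864 to 4154680, minus strand) and LOC_Os01g08460 (4167511 to 4171559, minus strand) had later differences of 2.52 and 2.36. The first was at 5.66 and 5.39 FPKM at 0 h, 4.97 and 5.70 FPKM at 8 h, 37.1 and 33.8 FPKM at 24 h, 36.8 and 37.1 FPKM with ABA, and 89.3 and 86.3 FPKM with IAA. The second was at 2.13 and 1.67 FPKM at 0 h, 3.35 and 2.66 FPKM at 8 h, 19.7 and 19.4 FPKM at 24 h, 12.1 and 11.6 FPKM with ABA, and 8.63 and 10.4 FPKM with IAA. They share the step from 8 to 24 h and differ in the hormone libraries, where IAA is the highest group of the first and lies below 24 h in the second.

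LOC_Os01g13690 (7665101 to 7668163, plus strand) had a later difference of 1.75 from a higher start. It was at 62.0 and 58.8 FPKM at 0 h, 64.2 and 59.0 FPKM at 8 h, 212 and 207 FPKM at 24 h, 446 and 461 FPKM with ABA, and 238 and 231 FPKM with IAA. No other group reached the ABA libraries.

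The next 5 genes by the later difference spanned 1.44 to 1.59. LOC_Os01g01160 went from 2.05 and 1.77 FPKM at 8 h to 7.45 and 8.02 FPKM at 24 h. LOC_Os01g25386 went from 15.2 and 14.4 FPKM to 47.0 and 43.8 FPKM. LOC_Os01g02070 went from 0.971 and 0.813 FPKM to 4.23 and 4.59 FPKM. The last of these is a short model of 483 bases that overlaps LOC_Os01g02080 on the other strand by 32 bases, and that neighbour had a mean of 32.2 FPKM, so its low values are uncertain. LOC_Os01g10890 went from 5.69 and 5.82 FPKM to 19.1 and 15.8 FPKM, and LOC_Os01g09300 from 18.8 and 19.3 FPKM to 53.8 and 53.1 FPKM.

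The late-rising genes covered a wide range of levels. Their mean over the 10 libraries ran from 1.09 to 792 FPKM with a median of 9.75 FPKM, beside 9.58 FPKM over all tested genes. A mean of at least 5 FPKM was found in 39 of the 55 (70.9%), beside 67.9% of all tested genes. The gene with the highest level, LOC_Os01g17170 (9874326 to 9876951, plus strand), was singled out after its values were seen. It was at 508 and 494 FPKM at 0 h, 544 and 516 FPKM at 8 h, 1039 and 1048 FPKM at 24 h, 1044 and 1070 FPKM with ABA, and 830 and 823 FPKM with IAA. Its IAA libraries lay below those of 24 h and ABA and above those of 0 and 8 h. A gene that is low in the dark can pass the level limit through its later groups. Without that limit 60 genes meet both limits on the change.

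Near the limit of 0.5 on the later rise, the lowest late-rising genes were LOC_Os01g12280 (0.50, from 4.52 to 6.83 FPKM) and LOC_Os01g09252 (0.51, from 4.92 to 7.40 FPKM). The nearest genes outside were LOC_Os01g29469 (0.50, from 13.1 to 18.8 FPKM, just under the limit) and LOC_Os01g37630 (0.49, from 2.11 to 3.37 FPKM). On the earlier change, LOC_Os01g21610 (0.49) and LOC_Os01g08460 (0.47) lay just inside the upper limit, and LOC_Os01g06590 (0.50) and LOC_Os01g10810 (0.51) just outside. LOC_Os01g08020 (-0.49) and LOC_Os01g22600 (-0.40) lay just inside the lower limit, and LOC_Os01g15640 (-0.53) and LOC_Os01g18220 (-0.54) just outside. The gene with the widest later difference is therefore also the one nearest to the lower limit. When each library of 0, 8 and 24 h was left out in turn, 42 of the 55 genes met the rule each time.

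Membership depends on how libraries are scaled. With median-of-ratios scaling, which sets the typical gene to no change, 87 genes meet the rule, and they include 51 of the 55. The other 4 then gained 0.5 or more by 8 h. The later difference of the 55 genes had a median of 1.02 after scaling, and it stayed at 0.5 or more in all 55.

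GLK2 (LOC_Os01g13740, chromosome 1, 7686884 to 7693987, minus strand) belongs to the late-rising genes, with an earlier difference of 0.03 and a later difference of 0.68. In the 6 libraries of the light course its level was 20.9 and 20.2 FPKM at 0 h, 21.7 and 20.4 FPKM at 8 h, and 36.3 and 32.5 FPKM at 24 h. In the hormone libraries GLK2 was at 32.5 and 29.3 FPKM with ABA and 28.0 and 28.3 FPKM with IAA. All 4 hormone libraries lay above the 4 libraries of 0 and 8 h. The higher ABA library lay just under the lower 24 h library, and both IAA libraries lay further below.

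**Figure D2:**
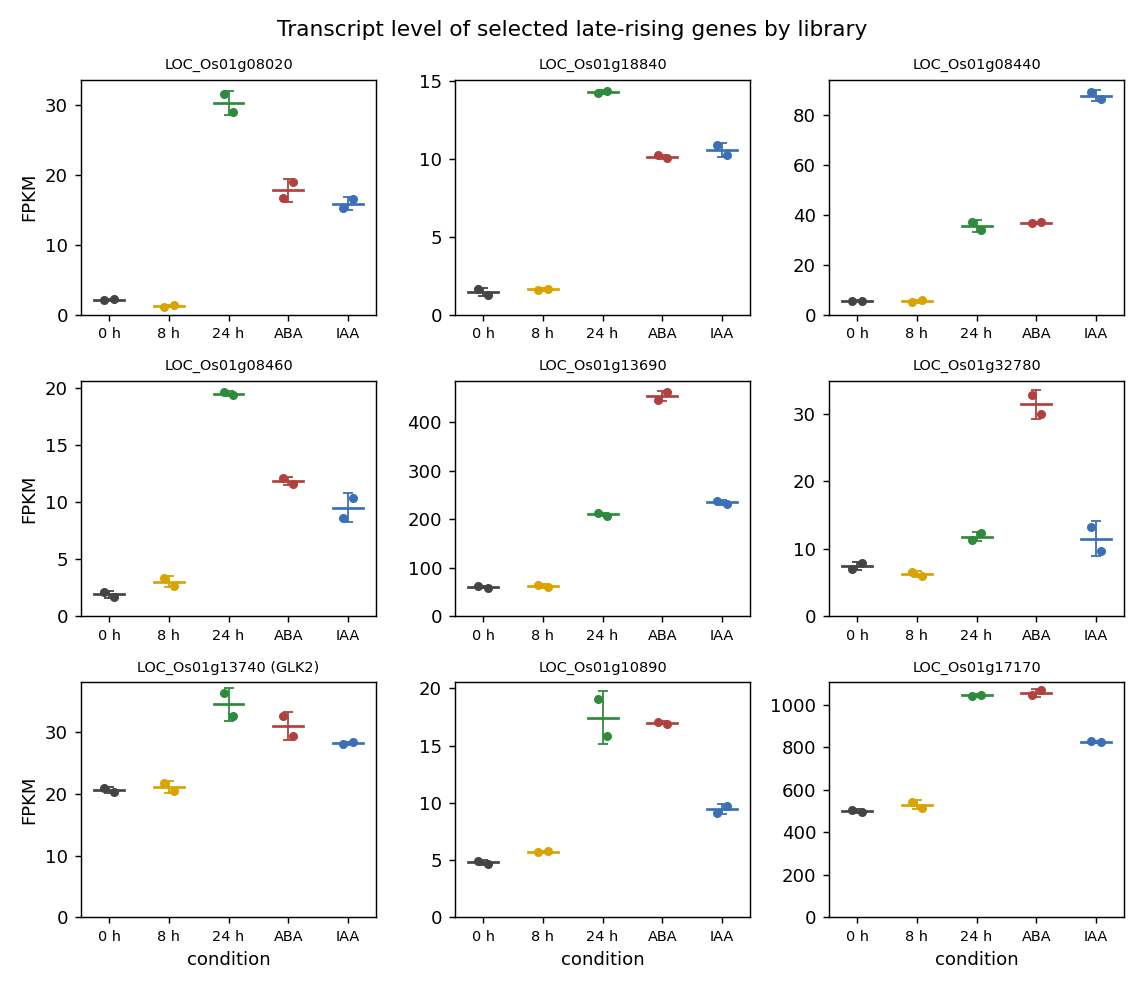
Transcript level in FPKM (y axes, from 0, a different range in each panel) of 9 late-rising genes in the 5 conditions. Points are libraries, horizontal lines the mean and bars the SD of 2 replicates. LOC_Os01g08440 is highest with IAA at 89.3 and 86.3 FPKM, and LOC_Os01g13690 and LOC_Os01g32780 are highest with ABA.

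The ABA and IAA libraries did not enter the limits on the change, and their seedlings also had 24 h of light. They did enter the limit on the mean level, and 4 of the 55 genes average under 1 FPKM without them. Of the 55 genes, 6 average under 1 FPKM over the 0 and 8 h libraries and passed that limit only through groups in which they are higher. The 0 h libraries entered the rule through the earlier change, which ties them to a level at 8 h that had to be low. The comparisons with 0 h are therefore a description of the chosen genes and no independent evidence of a rise. Both ABA libraries lay above both 0 h libraries in 50 of the 55 genes (20.9% of all tested genes), with overlap in the other 5, and the same counts were found with IAA (27.2% of all tested genes). None of the 55 (0 genes) had both hormone libraries below both 0 h libraries, with ABA (71.9% of all tested genes) or with IAA (57.5%).

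Calls were made with limma at an adjusted p-value under 0.01 (Benjamini-Hochberg, over all 1092 tested genes) and a minimum of 2-fold on log2(FPKM + 1), a scale that understates the change of low genes. For ABA against 0 h, 27 of the 55 late-rising genes passed these limits as higher (6.59% of all tested genes). For IAA against 0 h, 20 of the 55 did (6.87%). Nothing is read from these shares, since the rule used the 0 h libraries. No late-rising gene was called lower (0 genes, against 11.8% of all tested genes with ABA and 3.66% with IAA). At an unadjusted p under 0.05 from limma 0 were lower, against 718 of the 1092 tested genes with ABA and 518 with IAA. The median change of the 55 genes was 0.99 with ABA and 0.81 with IAA, while the median of all tested genes was -0.44 and -0.20. Set against those medians, the late-rising genes stood at 1.43 with ABA and 1.01 with IAA. With no limit on the fold, 46 genes passed with ABA (16.2% of all tested genes) and 45 with IAA (19.0%) as higher, and 0 as lower, where 59.2% and 35.8% of all tested genes were lower. The mean was 0.5 or more above 0 h in 43 of the 55 genes with ABA (12.8% of all tested genes) and in 38 with IAA (14.8%). Both comparisons use the same 0 h libraries. The rule puts the 24 h mean above the 0 h mean in every late-rising gene, and the hormone seedlings also had 24 h of light. All counts, shares and medians against 0 h are thus a description. Nothing is read from their distance to those of all tested genes.

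The largest changes from 0 h were those of LOC_Os01g13690 with ABA (log2 change 2.89, SE 0.057) and LOC_Os01g08440 with IAA (log2 change 3.77, SE 0.074). LOC_Os01g08020 followed with IAA at 2.42 (SE 0.092) and LOC_Os01g18840 at 2.24 (SE 0.095), and with ABA LOC_Os01g08020 at 2.57 (SE 0.092) and LOC_Os01g08440 at 2.54 (SE 0.074). GLK2 changed by less than 2-fold, so it was not called. Its log2 change from 0 h was 0.56 with ABA (SE 0.073) and 0.43 with IAA (SE 0.073). The change with ABA became 1.07 under median-of-ratios scaling, which is past 2-fold.

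Some late-rising genes stood near their dark level in both hormone groups. LOC_Os01g33784 was at 7.71 and 6.54 FPKM at 0 h, 5.50 and 5.17 FPKM at 8 h, 9.11 FPKM in each library at 24 h, 7.18 and 7.14 FPKM with ABA, and 7.18 and 5.77 FPKM with IAA. LOC_Os01g02430 was at 8.04 and 7.27 FPKM at 0 h, 6.19 and 5.68 FPKM at 8 h, 9.0 and 10.3 FPKM at 24 h, 7.86 and 7.67 FPKM with ABA, and 7.90 and 6.94 FPKM with IAA. In both genes each hormone group overlapped the range at 0 h. These genes were singled out after their values were seen, as those with the smallest change from 0 h with ABA.

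**Figure D3:**
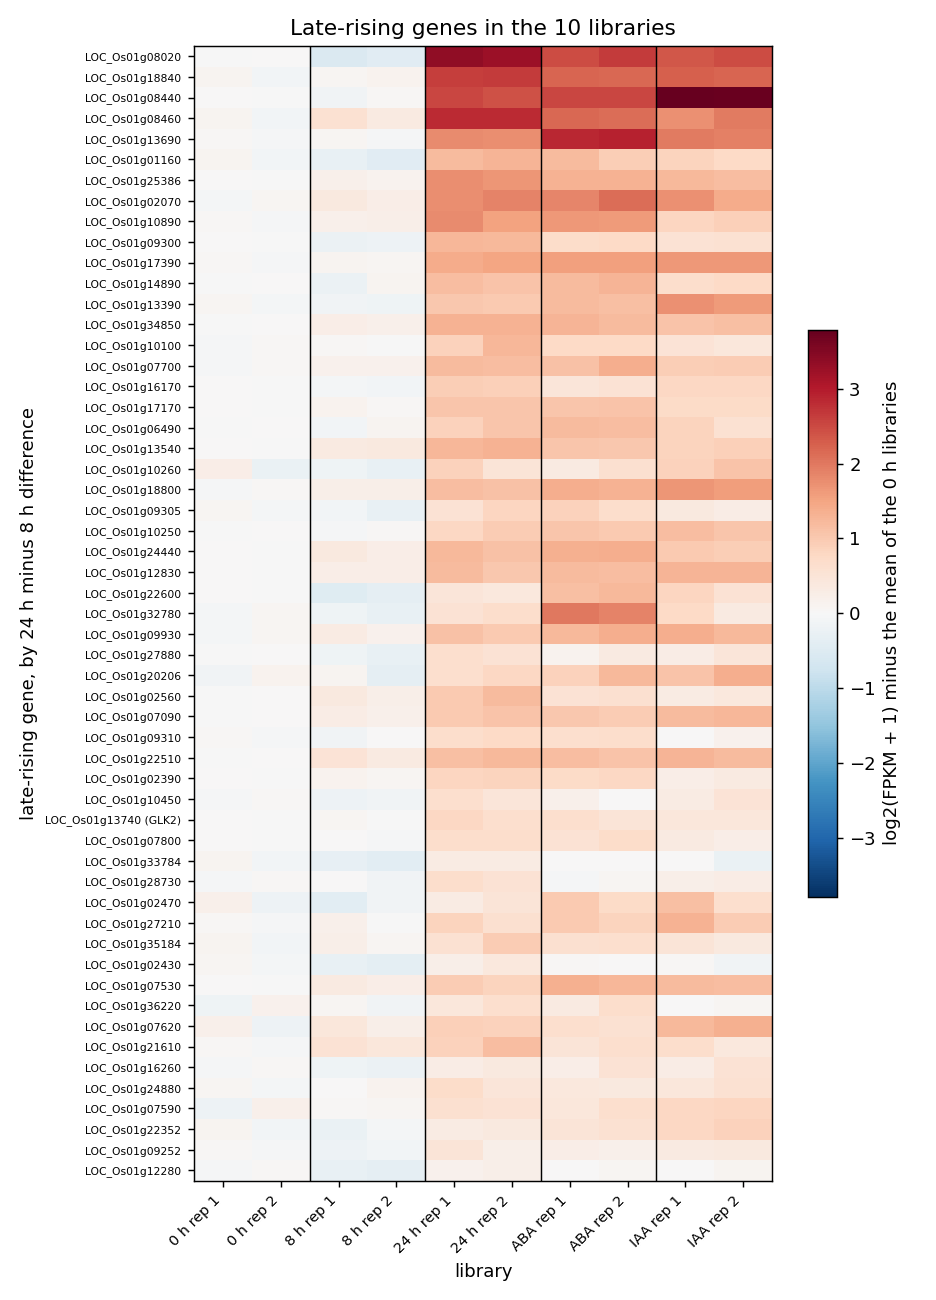
Level of each of the 55 late-rising genes in each of the 10 libraries, as log2(FPKM + 1) minus the mean of the 0 h libraries, with genes in the order of the difference between 24 and 8 h. Red is above and blue below the dark level. The 8 h columns are pale, and the 24 h, ABA and IAA columns are red in most rows, with the darkest cells for LOC_Os01g08440 under IAA.

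IAA and ABA were compared with each other in 4 libraries that the limits on the change did not use. These libraries did enter the limit on the mean level, which 4 of the 55 genes would miss without them. The difference was negative in 30 and positive in 25 of the 55 genes, with a median of -0.11 on the log2 scale, and over all tested genes it was positive in 74.7%, with a median of 0.21. Relative to that median the late-rising genes were at -0.32. Both IAA libraries lay below both ABA libraries in 27 of the 55 genes, against 17.6% of all tested genes, and above them in 17, against 62.5%. Under median-of-ratios scaling the late-rising genes had a median of -0.33, and the tested genes one of -0.03.

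At the 2-fold limit, LOC_Os01g08440 was called higher with IAA than with ABA (log2 change 1.23, SE 0.074, limma adjusted p = 2.16e-07), which makes 1 of 55 against 4.85% of all tested genes. Its change under median-of-ratios scaling was 0.94, short of 2-fold. LOC_Os01g32780 (17990828 to 17993764, minus strand) was called lower (log2 change -1.39, SE 0.121, limma adjusted p = 2.32e-06), again 1 of 55, against 0.916% of all tested genes. It was at 7.03 and 7.83 FPKM at 0 h, 6.50 and 5.92 FPKM at 8 h, 11.3 and 12.3 FPKM at 24 h, 32.9 and 30.0 FPKM with ABA, and 13.3 and 9.64 FPKM with IAA. Its ABA libraries stood above all others, and its IAA libraries overlapped those at 24 h. The other 53 late-rising genes were not called.

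With no limit on the fold, 11 late-rising genes were lower with IAA than with ABA (6.04% of all tested genes) and 6 were higher (36.2%) at an adjusted p under 0.01 from limma. The lower ones included LOC_Os01g13690 (log2 change -0.95, SE 0.057) and LOC_Os01g10890 (log2 change -0.79, SE 0.091), which both passed 2-fold after median-of-ratios scaling at -1.24 and -1.06. LOC_Os01g10890 was at 17.1 and 16.9 FPKM with ABA and 9.16 and 9.77 FPKM with IAA, beside 19.1 and 15.8 FPKM at 24 h. The higher ones included LOC_Os01g13390 (log2 change 0.50, SE 0.063), singled out after its values were seen, with 78.8 and 76.7 FPKM under ABA and 115 and 106 FPKM under IAA. GLK2 differed between IAA and ABA by -0.13 (SE 0.073), with an adjusted p of 0.148 in limma. Under median-of-ratios scaling this difference was -0.42, with a limma adjusted p of 0.000519, so the result for GLK2 depends on the scaling. Against 24 h, whose libraries chose the genes, GLK2 changed by -0.28 with IAA and -0.15 with ABA (SE 0.073 for each).

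**Figure D4:**
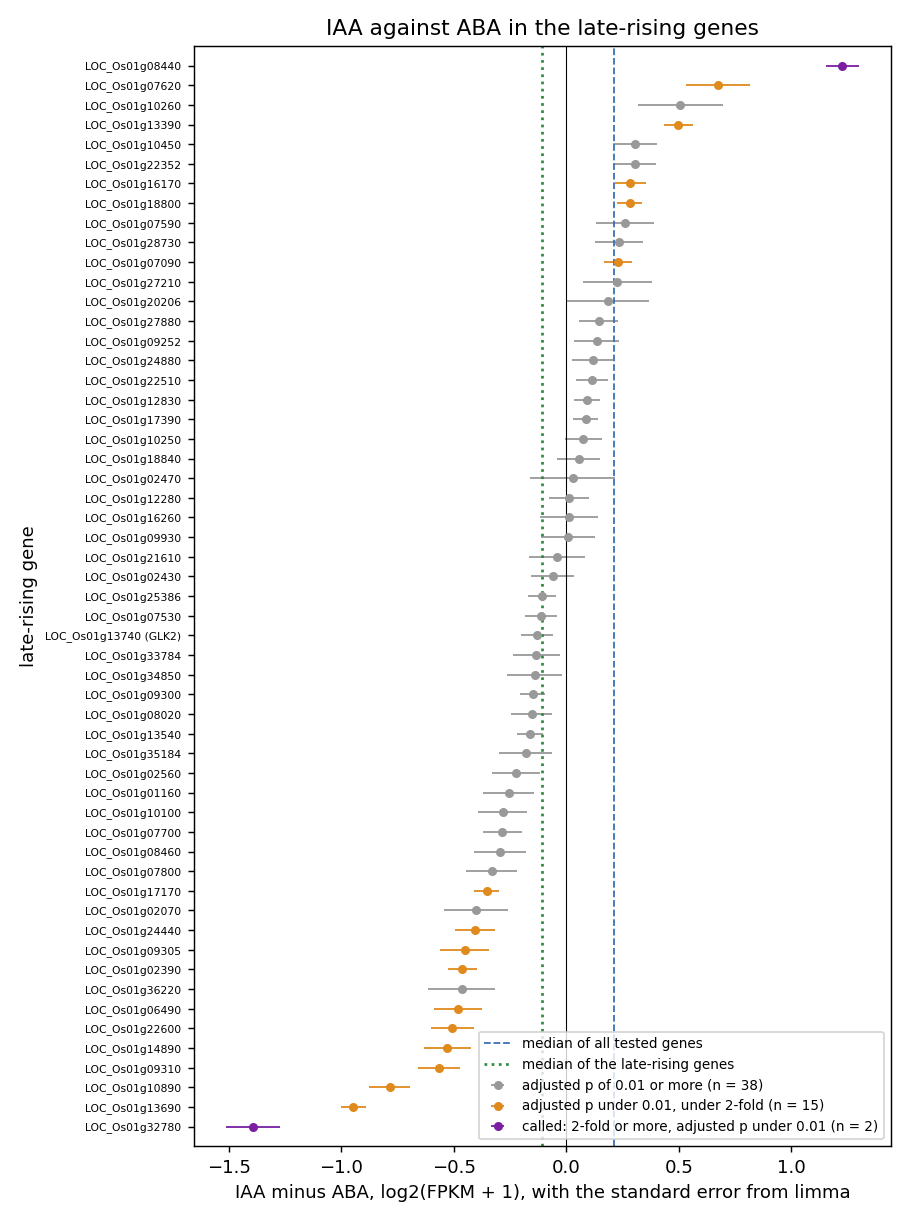
Difference between IAA and ABA (x axis, log2(FPKM + 1), positive where IAA is higher) for each of the 55 late-rising genes, with bars for the standard error from limma. LOC_Os01g08440 at 1.23 and LOC_Os01g32780 at -1.39 were called, and the median of the late-rising genes (-0.11) lies left of that of all tested genes (0.21).

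Each hormone was also compared with 24 h of light. The 24 h libraries chose the genes for their high level, so chance deviations there pull these differences down, and both comparisons share those libraries. Counts of genes above or below 24 h and the median changes are thus given as a description. Nothing is read from their distance to the values of all tested genes. With ABA, LOC_Os01g32780 (log2 change 1.34, SE 0.121, limma adjusted p = 6.68e-06) and LOC_Os01g13690 (log2 change 1.11, SE 0.057, adjusted p = 5.61e-08 from limma) were called higher, which is 2 of 55 genes against 1.65% of all tested genes. No gene was called lower with ABA (0 of 55, against 0.366% of all tested genes). At an unadjusted p under 0.05 from limma, 15 of the 55 were lower, against 352 of the 1092 tested genes. Both ABA libraries lay above both 24 h libraries in 15 genes (21.1% of all tested genes) and below them in 22 (47.5%). The late-rising genes had a median change of -0.05, beside -0.10 for the tested genes. Median-of-ratios scaling turned the former to 0.05, so its sign depends on the scaling.

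With IAA, LOC_Os01g08440 was called higher than at 24 h (log2 change 1.29, SE 0.074, adjusted p = 1.30e-07 from limma), which is 1 of 55 genes against 4.67% of all tested genes. No gene was called lower (0 of 55, against 0.0916%). At an unadjusted p under 0.05 from limma, 27 of the 55 were lower, against 165 of the 1092 tested genes. With no limit on the fold, 17 of the 55 lay lower than at 24 h (7.6% of all tested genes) and 5 lay higher (28.3%). The lowest were LOC_Os01g08460 (log2 change -0.97, SE 0.115) and LOC_Os01g08020 (log2 change -0.89, SE 0.092), which passed 2-fold after median-of-ratios scaling at -1.14 and -1.06. LOC_Os01g08460 was at -1.09 without IAA replicate 2, where it was called. Both IAA libraries lay above both 24 h libraries in 17 genes (51.2% of all tested genes) and below them in 31 (22.3%). The late-rising genes had a median change of -0.21 and the tested genes one of 0.13. With no limit on the fold, 11 late-rising genes were lower with ABA than at 24 h (12.2% of all tested genes) and 5 were higher (7.51%).

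On the chromosome, 25 late-rising genes lie on the plus strand and 30 on the minus strand (54.5%, beside 50.5% of all tested genes). Their models span a median of 3254 bases, beside 3592 bases over all tested genes, from 483 to 22017 bases. In 6 cases late-rising genes follow each other directly among the tested genes, which involves 11 of the 55. Genes that were not tested can lie between them, up to 8 for LOC_Os01g02470 and LOC_Os01g02560, which are 45996 bases apart. The number for genes picked at random was not computed, so no grouping on the chromosome is read from this count. LOC_Os01g09300 (4726659 to 4731243, plus strand), LOC_Os01g09305 (4732052 to 4733048, minus strand) and LOC_Os01g09310 (4734012 to 4737606, minus strand) form a run, separated by 808 and 963 bases. Their later differences were 1.44, 0.90 and 0.77.

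In all 3 genes of this run both IAA libraries lay below both ABA and both 24 h libraries. The ABA libraries lay below 24 h by different amounts or overlapped it. Both IAA libraries lay below both ABA libraries in 49.1% of the late-rising genes (17.6% of all tested genes). They lay below both 24 h libraries in 56.4% (22.3% of all tested genes), and the 24 h libraries chose the genes. The share below both groups was not computed, so no shared trait of the run is read from this. LOC_Os01g09300 was at 22.2 and 21.8 FPKM at 0 h, 53.8 and 53.1 FPKM at 24 h, 35.9 and 37.4 FPKM with ABA and 32.8 and 33.1 FPKM with IAA, so both hormone groups lay between 0 and 24 h. LOC_Os01g09305 was at 11.0 and 9.69 FPKM at 0 h, 9.49 and 8.24 FPKM at 8 h, 15.7 and 19.0 FPKM at 24 h, 19.8 and 17.0 FPKM with ABA, and 13.6 and 12.7 FPKM with IAA. LOC_Os01g09310 was at 5.16 and 4.73 FPKM at 0 h, 4.41 and 4.95 FPKM at 8 h, 8.48 and 8.94 FPKM at 24 h, 8.29 and 8.36 FPKM with ABA, and 4.97 and 5.66 FPKM with IAA. In the latter pair the ABA libraries overlapped or neared those at 24 h and the IAA libraries were lower. The difference between IAA and ABA was -0.15 (SE 0.056), -0.45 (SE 0.109) and -0.57 (SE 0.093) in the order along the chromosome. LOC_Os01g10250 and LOC_Os01g10260 are also direct neighbours in the table, 6986 bases apart on the minus strand, with later differences of 0.87 and 0.92.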

How the data were processed

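The authors trimmed reads with seqtk, mapped them with Hisat2 and calculated FPKM with Cufflinks, and the deposited values are FPKM per gene and library. The methods name HTSeq-count without strand for read counts, and no strand setting for Cufflinks. The submitters' processing notes also name SAMtools, featureCounts and DESeq2. Read counts were not used here and the depth is unknown. The unit is that of the methods and of the deposited table's title, although the study labels equal values of another gene TPM in a plot, which the values cannot settle. Of 2283 rows, 1 incomplete row was left out. Groups follow the sample titles.

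From the FPKM values, log2(FPKM + 1) was fitted with limma 3.58.1 (lmFit, eBayes with trend, R 4.3.3) in a two-sided test across 10 libraries and the 1092 genes averaging 1 FPKM or more. A gene was called at 2-fold or more and an adjusted p under 0.01, the limits of the study. This step was run on simulated log values drawn from a normal distribution with the spread of the tested genes. Those values follow the assumptions of the model, so the run cannot show how sound the calls in the real data are. The values of the rule use the log2 of the mean and limma the mean of the log2 values. Changes of low genes are understated on this scale. Python 3.11.15, numpy 2.4.6, pandas 2.3.3 and matplotlib 3.10.9 were used for the rest.

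The members and lists were chosen with earlier results of these data known. The genes named are GLK2, the 10 with the largest later difference, those called in IAA against ABA or in either hormone against 24 h, those next to a limit, neighbouring pairs, and genes said to be singled out after their values were seen. Keyword lists and promoter motifs could not be applied, since 0 IDs matched the RefSeq gene table. Alternatives were the pseudocount, the level filter, scaling, the libraries fitted, a replicate block, the p and fold limits and leaving out each library.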

Additional observations from a re-analysis of the deposited data

How the results depend on the processing

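Where no construction shows it, the cause of a shift was not tested. With median-of-ratios scaling 87 genes meet the rule, and 17 do with a later rise of 1 or more. Leaving out each library of 0, 8 and 24 h gave 51 to 60. With no limit on the fold, the late-rising genes past an adjusted p under 0.01 were 6 higher and 11 lower for IAA against ABA, 46 higher for ABA against 0 h, 45 higher for IAA against 0 h, 5 higher and 11 lower for ABA against 24 h, and 5 higher and 17 lower for IAA against 24 h. With scaling, 0 were higher and 3 lower for IAA against ABA, and 2 were lower for IAA against 24 h. A pseudocount of 0.1 gave 1 lower for IAA against 24 h, and leaving out each library gave 0 to 1. The median change after scaling was -0.33 for IAA against ABA, 1.32 and 0.98 for ABA and IAA against 0 h, and 0.049 and -0.36 for ABA and IAA against 24 h. With a pseudocount of 0.1 it was 1.08 and 0.92 for ABA and IAA against 0 h, and leaving out each library gave 0.94 to 0.99 for ABA against 0 h. Replicate differences correlated between conditions by -0.065 to 0.109. Equal numbers were not treated as pairs, although weak correlations cannot exclude pairing. With a replicate block the counts were 1 higher and 1 lower for IAA against ABA, 27 and 20 higher for ABA and IAA against 0 h, and 2 and 1 higher for ABA and IAA against 24 h. The other counts and medians kept within 1.5 times or 1 SD. With 2 replicates and unknown depth, small differences between single genes are not resolved. The promoter motif alternative was not run.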

Other observations

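Among the genes with a mean under 1 FPKM, 5 meet both limits on the change and were not counted as late-rising. Of the genes of the table, 491 are listed at 0 in every library.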
